A study of Mus musculus with 4 samples.

Results

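The genes described here are the classical and other cadherins and the non-clustered protocadherins of the mouse, measured in hypothalamic cells that carry a leptin receptor reporter. They were chosen by name, as every protein-coding gene whose symbol is Cdh or Pcdh followed by a number, with or without a final x, which gave 35 of the 19693 protein-coding genes in the tables (23 Cdh and 12 Pcdh genes). By family they are 13 type II and 5 type I classical cadherins, 5 other cadherins (Cdh13, Cdh16, Cdh17, Cdh23 and Cdh26), 4 delta-1 and 5 delta-2 protocadherins, and 3 further protocadherins (Pcdh12, Pcdh15 and Pcdh20). Symbols ending in letters, among them the clustered protocadherins, are not members. Hypothalamic cells were sorted from C57BL/6 mice that were Lepr-cre;Rosa-LSL-tdTomato, in which Cre made from the Lepr gene switches on tdTomato. All animals carried both alleles. Fed mice gave 3 plates of 384 wells, and mice kept without food for 24 h gave 1. The reporter marks any cell in which Lepr was active at some time, so a sorted cell need not hold Lepr transcripts. The sources used here give neither the number of animals per plate nor sex nor hour, so p-values measure the spread between plates, which may be technical.

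Cadherins are calcium-dependent adhesion proteins that bind mostly to the same or a related cadherin on the neighbouring cell. The classical types I and II anchor actin through beta-catenin, p120-catenin and alpha-catenin at adherens junctions, and type II members are known for dividing neurons and nuclei into adhesive groups in the developing brain. The non-clustered delta-protocadherins adhere weakly, signal through their own cytoplasmic tails and mark subsets of neurons and glia. In the hypothalamus such proteins sit at the junctions of the ventricular wall, of the vessels and at synapses.

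Of 1536 wells, 1279 passed the filters, with 270 on the fasted and 356, 322 and 331 on the fed plates, and plate totals ran from 4402407 to 5535041 transcripts. The cells were clustered without any adhesion gene and named from other markers. They comprised 388 neurons (194 of them AgRP-like), 234 tanycyte-like, 126 endothelial-like, 112 astrocyte-like and 102 VLMC-like cells (vascular and leptomeningeal), 51 oligodendrocyte-like and 29 oligodendrocyte precursor-like cells. Smaller classes were 42 pars tuberalis-like, 39 smooth muscle-like, 27 pericyte-like, 25 microglia or macrophage-like and 24 ependymal-like cells, and 80 cells stayed unnamed. Fed plate 1 was mostly from cells with Y-linked transcripts (75.6% Y-only) and the fasted plate had none (84.4% Xist-only), so sex and feeding state cannot be told apart between them. The wells are barcoded alike on every plate, so shared barcodes carry no information.

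Together the members gave 95310 of 19725717 transcripts (0.483%). Depth differed greatly among them, from 4 transcripts of Cdh16 to 39292 of Pcdh9: 27 members had at least 100 transcripts, 7 had 10 to 99 and 1 had fewer. Levels are given in CPM, the deposited molecule counts summed over the cells of a class on a plate and scaled to a common total per sum, and are ordered only within a gene, never between genes. A class was tested against the remaining kept cells of the same plates with edgeR's quasi-likelihood test and Benjamini-Hochberg adjustment over all genes (threshold 0.05), where at least 3 plates held 5 or more of its cells. Differences are log2 values ± SE, positive where the class was higher. Whether the plate values of the groups overlap was looked at for members only, not over all genes, and is a description.

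Most members were higher in 1 to 3 of the classes tested, where 8.35% to 27.7% of all genes tested were higher in each class. In how many classes other genes were higher was not counted. Over the 7 classes tested, 30 members entered at least 1 test, and 12 of them were higher in 1 class, 8 in 2, 7 in 3 and 1, Cdh11, in 4. Not every member entered all 7 tests. Among those higher in 1 class, Pcdh12 entered 1 test and Cdh24 entered 3, so the filter on low counts limited where they could be called. Cdh7, a type II cadherin, passed in no direction in any of the 7 classes, at 74.5 CPM in neurons, 63.5 in tanycyte-like and 86.7 in astrocyte-like cells, summed over plates. Cdh23, part of the tip link of inner ear hair cells, was the other member called in no class, with 39 transcripts in neurons. The 5 members that entered no class test were Cdh3, Cdh15, Cdh16, Cdh17 and Cdh26. The profiles over the 35 members were more alike between plates of 1 class (median Pearson r 0.917 over 38 pairs of plate sums, log2 of CPM + 10) than between 2 classes of 1 plate (0.599 over 143 pairs), and 31 of 35 sums were most like another plate of their own class. These correlations run across genes, which are not independent replicates, and the pairs share plates and depth.

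**Figure D1:**
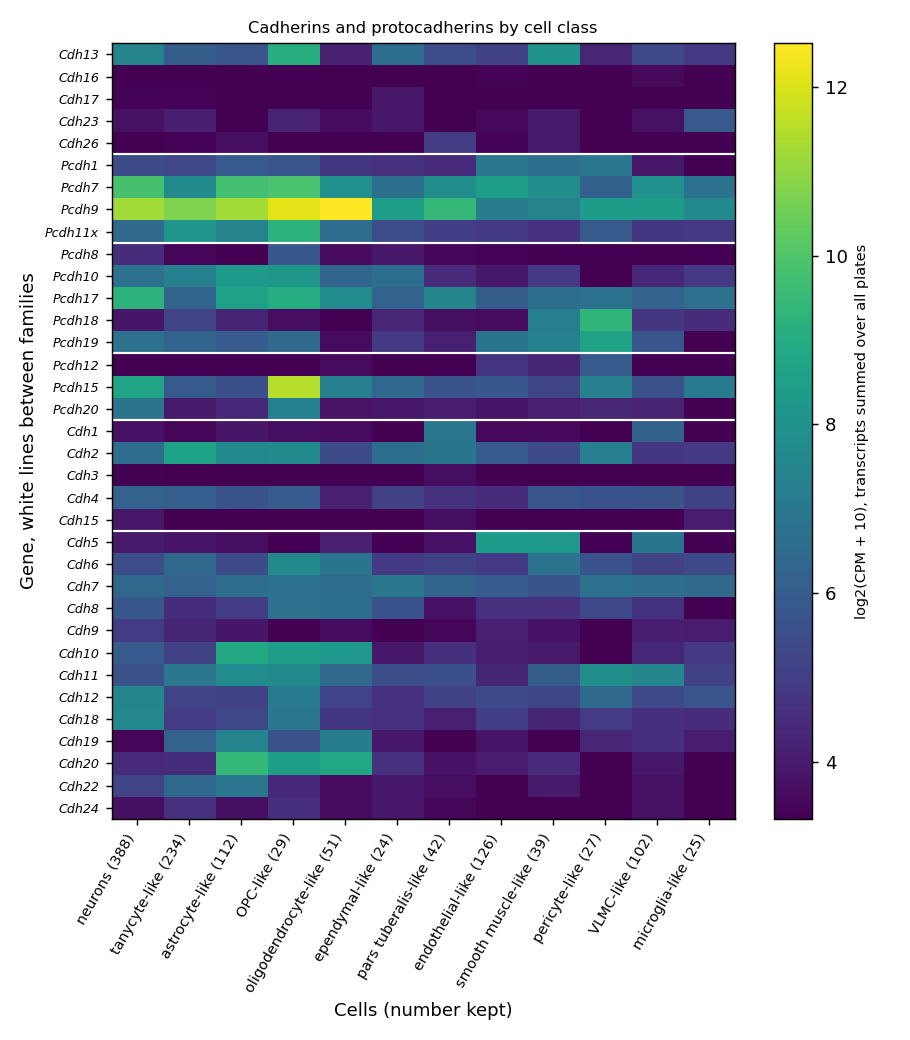
Level of each member (rows, grouped by family) in each cell class (columns, with the number of cells), as log2(CPM + 10) of transcripts summed over the plates; yellow is high. Cdh20 and Cdh10 are bright in the astrocyte-like, precursor-like and oligodendrocyte-like columns, Cdh5 in the endothelial-like and smooth muscle-like columns, and Cdh7 is nearly even across the row.

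The number of members seen per cell also differed by class. After every cell was thinned to 2000 transcripts, oligodendrocyte precursor-like cells held a mean of 8 members per cell, astrocyte-like cells 5.77 and neurons other than AgRP-like 5.66. AgRP-like neurons held 3.87, tanycyte-like cells 3.66, VLMC-like cells 2 and microglia or macrophage-like cells 1.68. Without thinning the means were 16.2 for the precursors, 9.03 for astrocyte-like cells, 14.8 for the other neurons and 11.9 for AgRP-like neurons. Plate means of thinned astrocyte-like cells ran from 5.80 to 5.88, those of other neurons from 4.92 to 5.95, those of AgRP-like neurons from 3.52 to 4.70 and those of tanycyte-like cells from 3.14 to 3.87, so that AgRP-like neurons stayed below the other neurons and the astrocyte-like cells and overlapped with tanycyte-like cells.

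Start site windows of members with sharp class patterns are shown because their content of CG spans the whole range found among the members. RefSeq windows on GRCm38.p6 (250 bases before to 50 after the annotated start) matched 22 of the 35 members with 25 windows. The dinucleotide CG, which reads the same on both strands and cannot overlap itself, occurred 2 to 38 times per member window, with a median of 14 against 7 over all 32851 windows. The type II cadherins higher in astrocyte-like cells that had a window were spread over this range. Cdh10 had 2 (85.9% of all windows hold as many or more), Cdh20 had 18 (29.7%) and Cdh22 had 38 (4.95%). Cdh6, higher in tanycyte-like, oligodendrocyte-like and precursor-like cells, had 8 (48.6%). Pcdh20, high in AgRP-like neurons, had 4 (68.6%), and Pcdh15, highest in oligodendrocyte precursor-like cells, had 8 (48.6%). The windows are Cdh10 at chr15:18820079-18820378 (plus strand), Pcdh20 at chr14:88471347-88471646 (minus), Pcdh15 at chr10:73821617-73821916 (plus), Cdh20 at chr1:104768270-104768569 (plus) and Cdh22 at chr2:165234688-165234987 (minus). The RefSeq start used lies at the first base of the annotated gene for Pcdh20, nearly there for Cdh20, 116 bases inside the gene for Cdh22 and 1382 for Cdh10, and 722525 bases inside it for Pcdh15, so that the Cdh10 and Pcdh15 windows are at internal starts. They are written 5′ to 3′ on the gene's strand with each CG in capitals.
Cdh10: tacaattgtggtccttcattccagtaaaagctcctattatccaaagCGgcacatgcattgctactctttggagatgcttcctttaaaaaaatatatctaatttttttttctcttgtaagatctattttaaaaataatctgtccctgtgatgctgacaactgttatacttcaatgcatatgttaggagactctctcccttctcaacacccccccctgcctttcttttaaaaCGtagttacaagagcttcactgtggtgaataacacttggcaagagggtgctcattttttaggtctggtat
Pcdh20: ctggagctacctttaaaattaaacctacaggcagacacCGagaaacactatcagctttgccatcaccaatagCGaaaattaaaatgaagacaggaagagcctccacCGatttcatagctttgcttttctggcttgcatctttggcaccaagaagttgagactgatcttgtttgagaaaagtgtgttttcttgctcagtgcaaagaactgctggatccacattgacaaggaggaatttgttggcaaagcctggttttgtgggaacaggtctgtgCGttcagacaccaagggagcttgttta
Pcdh15: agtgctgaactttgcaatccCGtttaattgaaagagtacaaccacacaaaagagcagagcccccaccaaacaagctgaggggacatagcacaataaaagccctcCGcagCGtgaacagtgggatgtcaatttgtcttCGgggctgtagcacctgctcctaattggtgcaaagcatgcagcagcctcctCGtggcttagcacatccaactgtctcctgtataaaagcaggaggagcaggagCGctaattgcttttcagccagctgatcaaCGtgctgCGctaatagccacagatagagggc
Cdh20: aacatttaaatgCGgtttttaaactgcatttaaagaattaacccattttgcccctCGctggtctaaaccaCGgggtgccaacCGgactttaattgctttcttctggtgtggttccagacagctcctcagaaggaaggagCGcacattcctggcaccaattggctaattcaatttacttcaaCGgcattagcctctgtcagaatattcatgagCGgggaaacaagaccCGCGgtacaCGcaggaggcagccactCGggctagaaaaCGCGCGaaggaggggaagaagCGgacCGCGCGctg
Cdh22: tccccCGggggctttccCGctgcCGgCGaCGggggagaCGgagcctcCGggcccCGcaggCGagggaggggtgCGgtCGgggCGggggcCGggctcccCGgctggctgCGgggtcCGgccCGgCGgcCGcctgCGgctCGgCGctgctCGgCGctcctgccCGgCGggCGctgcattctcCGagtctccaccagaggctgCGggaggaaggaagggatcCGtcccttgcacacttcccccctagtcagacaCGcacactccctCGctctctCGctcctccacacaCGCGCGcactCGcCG

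Endothelial-like cells carried the cadherin of vascular junctions. Cdh5 (VE-cadherin, the adherens junction protein of endothelium) stood at 331, 450.4, 377 and 244 CPM on fed plates 1, 2 and 3 and the fasted plate, against 65.9, 10.7, 24.2 and 12 CPM in the remaining cells. The groups did not overlap, and the difference was 4.02 ± 0.40 (edgeR adjusted p = 4.05e-06). Pcdh12, a protocadherin known from endothelium, gave 24 transcripts in these cells and 12 in all others, 5.49 ± 0.72. Among the class tests it entered only this one, so it could not be called in any other class. Summed over plates, its level was highest in pericyte-like cells, which were not tested, at 50.34 CPM against 16.97 in endothelial-like cells. Pcdh1, a delta-1 protocadherin of epithelia and vessels, was at 121, 129, 100.4 and 79.1 CPM against 37.8, 36, 35.3 and 30.03, 1.73 ± 0.30, and Pcdh19 passed with a smaller difference of 0.64 ± 0.27 whose groups overlapped. Of 29 members tested, 4 were higher and 17 lower, beside 41.2% of all 14201 genes tested passing in either direction (15.7% higher and 25.5% lower). The median log2 difference was -1.92 over the tested members and -0.22 over all tested genes. The remaining cells held unnamed clusters of 26 and 22 cells that each met 8 of 8 endothelial markers. The first, with 18 cells from fed plate 1, was rich in Cdh13 and Cdh5 (given under other observations). Its part in the differences of these genes was not tested. The largest falls were those of Cdh22, with 0 endothelial transcripts and at least 14.0-fold lower by the limit that a count of 0 allows (3 counts over the class), and of Pcdh20 (-3.93), Pcdh10 (-3.88), Pcdh9 (-3.56), Pcdh8 (1 transcript against 9.83 CPM) and Pcdh17 (-2.83). The other falls, from -2.36 to -1.66 where more than 3 transcripts were seen, were of Pcdh18, Cdh1, Cdh10, Cdh18, Pcdh15, Cdh11, Cdh13, Pcdh11x, Cdh20, Cdh4 and Cdh12, with 3 transcripts of Pcdh18 and 2 of Cdh1.

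A cluster of 57 endothelial-like cells led by Lcn2, Lrg1 and Ch25h came from fed plate 1 alone. It was singled out after its values were seen, so its levels are a description: summed over its cells, Pcdh7 was at 466 CPM there and 67.3 in the other endothelial-like cluster of 69 cells, Pcdh12 at 4.19 and 43.4, and Cdh5 at 322 and 354. Pcdh7, a delta-1 protocadherin, did not pass in the class test (-2.28 ± 0.89, edgeR adjusted p = 0.15). Without that cluster 3 members were higher and 16 lower of 28 tested: Pcdh7 was then lower (-3.46 ± 0.28, edgeR adjusted p = 1.59e-32), and Pcdh19 did not pass (0.60, edgeR adjusted p = 0.085). All 7 VLMC markers were seen in the cluster, at 4825 CPM together, and 6 of 7 in the other endothelial-like cluster, at 202. The part of VLMC RNA in its Pcdh7 level was not tested.

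VLMC-like cells, which are fibroblasts found in meninges and around vessels, were higher in 3 members. Cdh1 (E-cadherin, the junction protein of epithelia and of part of the leptomeninges) was at 46.4, 59, 97.1 and 0 CPM on fed plates 1, 2 and 3 and the fasted plate, against 6.85, 2.13, 2.67 and 17.7 in the remaining cells (3.56 ± 0.58, edgeR adjusted p = 1.38e-08). Cdh11, a type II cadherin of mesenchymal cells, was at 139, 177, 252 and 0 against 23.9, 64.3, 66.5 and 67.7 (1.64 ± 0.31), and Cdh5 at 77.4, 106, 160.2 and 27.8 against 116, 16.6, 27.3 and 19.3 (1.68 ± 0.35). Cdh1 and Cdh11 were higher on each fed plate and had 0 transcripts on the fasted one, while Cdh5 was higher on all plates but fed plate 1. Of 27 members tested, 3 were higher and 16 lower, beside 29.2% of all 13888 genes tested passing in either direction (12.1% higher and 17.2% lower). Over the tested members the median log2 difference was -1.89, and over all tested genes -0.18. The largest falls were of Cdh18 (-3.21), Pcdh10 (-3.13), Cdh20 (3 transcripts against 52.2 CPM), Cdh22 (2 transcripts against 28.2 CPM), Pcdh15 (-2.90) and Pcdh1 (3 transcripts against 41.5 CPM). The remaining ones past 1 on the log2 scale were Pcdh20, Cdh2, Cdh10, Pcdh17, Pcdh11x, Pcdh9, Cdh13, Cdh12 and Pcdh7.

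Within VLMC-like cells Cdh1 came from a single cluster. All 36 transcripts lay in a cluster of 10 cells led by Nov and Slc47a1, in 7 of those cells, at 470.5 CPM, and the other clusters of 51 and 41 cells had 0 of 261202 and 0 of 238967 transcripts, which allows up to 11.5 and 12.6 CPM. Cdh11 was at 758 CPM in that cluster and 26.8 and 146 in the others, and Pcdh7 at 1268 against 80.4 and 87.9. The 7 VLMC markers summed to 4626 CPM in it (6 seen) and to 25145 and 21015 in the others. The cluster was chosen after these values were seen. Its cells numbered 2, 2 and 5 fed and 1 fasted. Without it Cdh5 was the only higher member called (1.45), Cdh11 differed by 0.63 and did not pass, Cdh1 was too low to test, and Pcdh7 went from -1.68 to -2.94. The 8 endothelial markers summed to 1509, 890.5, 616 and 459 CPM in VLMC-like cells against 15590.3, 20943, 21183 and 17655 in endothelial-like cells, and the part of such RNA in the Cdh5 level was not tested.

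The other vascular classes held too few cells per plate for the test, and their levels are summed over plates. Pericyte-like cells had 644 CPM of Pcdh18 (64 transcripts, 95% counting interval 496 to 823), a delta-2 protocadherin, and the next class, smooth muscle-like, had 145. Pcdh19, an X-linked delta-2 protocadherin known for a female-limited epilepsy in people, was at 383 CPM and Cdh11 at 221 in the same cells, while Cdh5 had 0 transcripts. Smooth muscle-like cells showed 296 CPM of Cdh5, from 1 of their 2 clusters: 338 CPM in the cluster of 29 cells and 0 of 64972 transcripts in the cluster of 10. All 8 endothelial markers were seen in the first cluster, at 12171 CPM together, and 6 in the second, at 154. The 5 smooth muscle markers summed to 5706 CPM in the first, below its endothelial sum, and to 42049 in the second. Haemoglobin genes were among the leading genes of the first cluster beside Acta2 and Myh11, and its 4 erythrocyte markers summed to 14234 CPM. The part of endothelial RNA in that Cdh5 level was not tested.

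Tanycyte-like cells, the radial glia-like cells of the third ventricle's floor and wall, had the highest level of Cdh2 among the classes. Cdh2 (N-cadherin, the main classical cadherin of neural tissue) was at 201, 465, 383 and 481 CPM on fed plates 1, 2 and 3 and the fasted plate, against 46.7, 93.9, 94.2 and 110.1 in the remaining cells. The groups did not overlap (2.12 ± 0.14, edgeR adjusted p = 5.58e-09). Pcdh11x, an X-linked delta-1 protocadherin, was nearly level between plates at 247, 263, 261 and 311 CPM, against 45.3, 97.2, 106 and 81.7 (1.73 ± 0.18). Cdh19, a type II cadherin known from the Schwann cell lineage, was at 51.8, 54.1, 57.4 and 93.7 CPM against 0.579, 10.3, 7.26 and 30.9 (2.73 ± 0.63). Cdh24 and Cdh22, both type II, were higher by 2.43 ± 0.60 and 1.57 ± 0.22 with overlapping groups, and Cdh11 and Pcdh18 were each higher by 1.11 without overlap. Cdh6 and Pcdh10 passed with 0.94 and 0.67. Of 29 members tested, 9 were higher and 14 lower, beside 43.0% of all 13975 genes tested passing in either direction (19.2% higher and 23.8% lower). The tested members had a median log2 difference of -0.60 and all tested genes one of -0.04. The largest falls were of Pcdh20 (-3.63), Cdh5 (-3.35), Pcdh8 (2 transcripts against 10.001 CPM), Cdh1 (2 transcripts against 10.1 CPM), Pcdh15 (-2.88) and Cdh18 (-2.86), followed by Pcdh17, Cdh12, Cdh20, Pcdh7, Cdh8, Cdh10 and Cdh13.

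Tanycyte-like clusters differed in their protocadherins and in Cdh6, again as a description of clusters singled out after their values were seen. The cluster of 61 cells led by Scn7a and Col25a1 had 146 CPM of Cdh6 (183, 126 and 131 on the fed plates), and the cluster of 149 cells led by Crym and Frzb had 37.6 (28.8, 32.7 and 45.7). Pcdh18 was at 53.4 against 15.2 CPM and Pcdh19 at 117 against 39.4, whereas Pcdh10 was at 103 against 182. Ependymal-like cells, the ciliated neighbours of tanycytes, were too few to test and had 89.5 CPM of Cdh2 against 392 in tanycyte-like cells, and 114 of Cdh7, its highest class.

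In astrocyte-like cells 5 of the 13 type II cadherins tested were higher and 3 lower. Cdh20 was at 727, 616 and 708 CPM on fed plates 2 and 3 and the fasted plate, against 27.2, 34.2 and 54.5 in the remaining cells, with no overlap and a difference of 4.32 ± 0.21 (edgeR adjusted p = 1.41e-94). Cdh10 was at 487, 381 and 504 against 70.8, 67.8 and 61.2 (2.93 ± 0.21) and Cdh19 at 127, 95.1 and 217 against 11.7, 10.2 and 23.7 (3.42 ± 0.32). Cdh22 (2.05 ± 0.30), Cdh11 (1.83 ± 0.24) and the delta-2 protocadherin Pcdh10 (1.72 ± 0.21) were also higher on all 3 plates. Smaller rises were those of Pcdh11x, Cdh2 and Pcdh7, between 0.45 and 0.75. Fed plate 1 held 3 astrocyte-like cells and did not enter. Of 28 members tested, 9 were higher and 7 lower, beside 36.6% of all 14244 genes tested passing in either direction (14.6% higher and 22.0% lower). Over the tested members the median log2 difference was -0.28, and over all tested genes -0.23. The falls were of Pcdh15 (-3.32), Cdh5 (2 transcripts against 25.1 CPM), Pcdh20 (-2.63), Cdh12 (-2.27), Cdh18 (-2.15) and Cdh13 (-1.67), and Pcdh8 had 0 astrocyte-like transcripts, at least 2.4-fold lower. Against the unweighted mean of the other classes 1 of these 7 falls was called, and Pcdh20 (0.61) and Cdh18 (0.47) turned positive.

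Oligodendrocyte-like cells shared the leading cadherins of astrocyte-like cells. Cdh20 was at 469, 268 and 479.7 CPM on fed plates 2 and 3 and the fasted plate, against 42.6, 54.5 and 66.1 (2.98 ± 0.31, edgeR adjusted p = 1.17e-20), Cdh19 at 134, 73.1 and 157 (2.85 ± 0.45) and Cdh10 at 369, 292 and 309 (2.15 ± 0.31). Pcdh9, a delta-1 protocadherin, stood almost level at 5714, 5675 and 5631 CPM against 2046, 1951 and 2443 (1.44 ± 0.19), and Cdh6 was higher by 1.21 ± 0.42. No group overlapped for these 5, which was not counted over all genes. Of 27 members tested, 5 were higher and 12 lower, beside 32.1% of all 13751 genes tested passing in either direction (8.59% higher and 23.5% lower). The tested members had a median log2 difference of -1.68 and all tested genes one of -0.58. With members at 0 set to their bound the members' median was -1.07. Pcdh19 and Pcdh18 had 0 oligodendrocyte-like transcripts, at least 14.9-fold and 2.1-fold lower. The other leading falls were of Pcdh20 (1 transcript against 73.8 CPM), Cdh22 (1 transcript against 36.1 CPM), Cdh13 (-3.86) and Cdh18 (-2.73), Cdh13 on 4 transcripts, and falls past 1 were also those of Cdh4, Cdh2, Cdh12, Pcdh7, Pcdh17 and Pcdh15.

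Oligodendrocyte precursor-like cells had 12 members higher. Pcdh15, the other tip link protein of hair cells, was at 2667, 2956 and 2954 CPM on fed plates 2 and 3 and the fasted plate, against 272, 336 and 374 in the remaining cells (3.13 ± 0.20, edgeR adjusted p = 5.99e-51). Oligodendrocyte-like cells, which derive from such precursors, had 201, 292 and 138 CPM, lower than their remaining cells (-1.07 ± 0.29) but at 0.87 against the unweighted mean of the other classes. Cdh20 followed with 2.62 ± 0.25, Pcdh11x with 2.60 ± 0.22 (573, 761 and 516 CPM), Pcdh8, an activity-regulated delta-2 protocadherin, with 2.44 ± 0.67 on 17 transcripts, Cdh6 with 2.24 ± 0.31 and Cdh10 with 2.13 ± 0.24. Cdh13, Cdh11, Pcdh10, Pcdh20, Cdh8 and Pcdh9 were higher by 1.02 to 1.83. All 12 were higher on all 3 plates without overlap, which was not counted over all genes. Of 29 members tested, 12 were higher and 2 lower, beside 22.2% of all 13922 genes tested passing in either direction (8.35% higher and 13.9% lower). The tested members had a median log2 difference of 0.87 and all tested genes one of -0.24. Cdh5 and Cdh9 had 0 precursor transcripts, at least 3.0-fold and 2.1-fold lower.

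**Figure D2:**
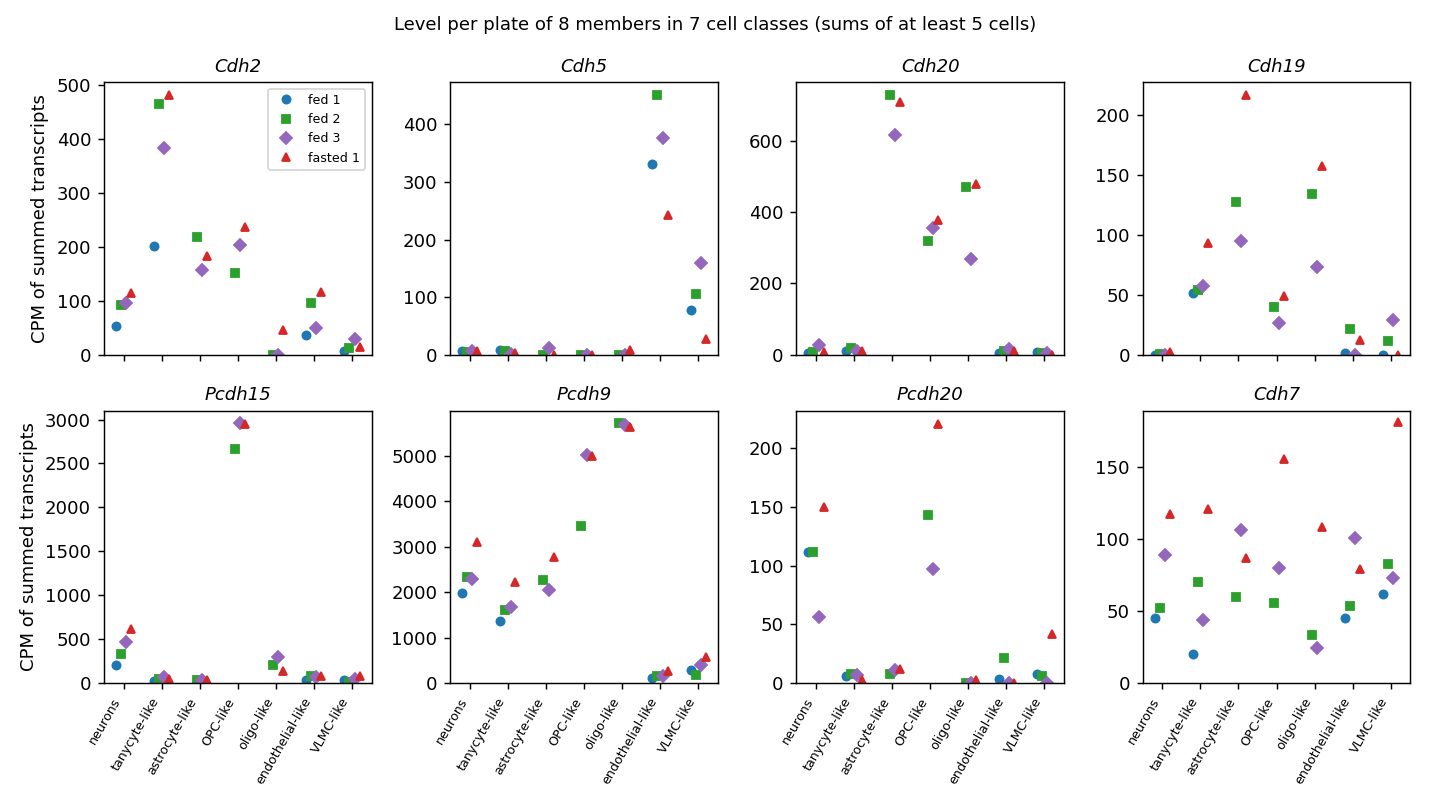
CPM of 8 members (panels, linear axes from 0) in the 7 tested classes; each point is 1 plate, fed 1 to fed 3 and fasted 1 by colour and shape, for sums of at least 5 cells. Pcdh15 is at 2667 to 2956 CPM in oligodendrocyte precursor-like cells. Cdh20 is high in astrocyte-like, precursor-like and oligodendrocyte-like but not in tanycyte-like cells, and the points of Cdh7 mix across classes.

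Neurons were higher in 11 members and lower in 8. Pcdh20, known for its part in placing neurons in cortical layers, was at 112, 112, 56.4 and 149.7 CPM on fed plates 1, 2 and 3 and the fasted plate, against 4.08, 19.6, 13.9 and 17.7 in the remaining cells (3.06 ± 0.36, edgeR adjusted p = 2.47e-04). Cdh18 was at 142, 162, 248 and 199 against 18.3, 65, 40.4 and 27 (2.47 ± 0.27) and Pcdh17, a delta-2 protocadherin known from synapses of the basal ganglia, at 596, 522, 536 and 759 against 71.8, 155, 146 and 181 (2.22 ± 0.22). Pcdh8 (1.92), Cdh12 (1.83), Pcdh7 (1.54) and Cdh9 (1.53) were higher on all 4 plates without overlap, and Pcdh15 and Pcdh9 with 1.19 and 1.03 and overlap. Cdh4 and Cdh8 passed below 1. Of 28 members tested, 11 were higher and 8 lower, beside 57.1% of all 14329 genes tested passing in either direction (27.7% higher and 29.4% lower). The median log2 difference was 0.19 over the tested members and 0.0 over all tested genes. The falls were of Cdh19 (-5.54), Cdh5 (-3.77), Cdh20 (-3.03), Pcdh18 (-2.54), Cdh1 (-2.18) and Cdh11 (-1.18), with Cdh2 and Cdh6 below 1. Against the unweighted mean of the other classes 1 of the 8 was called, and Cdh1 (0.94) and Cdh5 (0.44) turned positive. Cdh13 (T-cadherin, which lacks a cytoplasmic part and is held by a lipid anchor) was at 163 CPM in neurons and 117 in other cells and did not pass as a whole.

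Neurons gave 60.4% of all transcripts, so the remaining cells of a non-neuronal class were mostly neuronal RNA. Against the unweighted mean of the other classes, members lower went from 14 to 2 in tanycyte-like, 7 to 1 in astrocyte-like, 17 to 5 in endothelial-like, 16 to 5 in VLMC-like and 12 to 3 in oligodendrocyte-like cells, and from 8 to 1 in neurons. Over all genes, those lower also went from 3132 of 14244 tested to 622 of 10097 in astrocyte-like cells. In endothelial-like cells they went from 3619 of 14201 to 994 of 10097. Cdh12 in endothelial-like cells turned from -1.66 to 0.12.

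Among the classes not tested, pars tuberalis-like cells of the pituitary stalk had 116 CPM of Cdh1 (66.7 on fed plate 1 and 136 on the fasted plate), the highest class for it, and 16 of the 25 Cdh26 transcripts in the data. Microglia or macrophage-like cells had 49.2 CPM of Cdh23, from 8 transcripts. Cdh3 (P-cadherin) and Cdh17 had 12 transcripts each in all kept cells and Cdh15 (M-cadherin of muscle) 65.

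The catenins, which link classical cadherins to actin, and other partners were counted in the same tests, where 57.1% of all genes passed in neurons, 41.2% in endothelial-like, 29.2% in VLMC-like, 32.1% in oligodendrocyte-like, 43.0% in tanycyte-like, 36.6% in astrocyte-like and 22.2% in precursor-like cells. With lists this short and shares this high, the counts are a description only. Of the 7 listed, 2 were higher and 5 lower in neurons: Ctnna1 (alpha-E-catenin) was lower (-2.74 ± 0.14), as was Jup (plakoglobin, -2.15 ± 0.20), and Ctnna2 (alpha-N-catenin) was higher by 2.03 ± 0.23. In endothelial-like cells 4 were higher and 2 lower, Ctnna2 at -3.20 ± 0.26, Ctnnd2 (delta-catenin) at -2.89 ± 0.26 and Ctnnb1 (beta-catenin) at 2.07 ± 0.22. VLMC-like cells also had 4 higher and 2 lower. In oligodendrocyte-like cells 2 were higher, Ctnna3 by 3.37 ± 0.30 and Jup by 2.49 ± 0.45, and 2 lower. In tanycyte-like cells 1 was higher and 4 lower. Astrocyte-like cells had 2 higher and 2 lower and the precursors 3 higher and 1 lower, with Ctnnd2 higher in both (2.23 ± 0.17 and 1.29 ± 0.20). Of the wider cadherin superfamily, 5 of 14 tested were higher in tanycyte-like cells and 3 lower, led by Celsr1 (a planar polarity cadherin, 4.57 ± 0.24), Fat3 (an atypical cadherin, 3.13 ± 0.19) and Clstn3 (a synaptic calsyntenin, -2.78 ± 0.21). In neurons 5 of 13 were higher and 6 lower. Of the 6 nectins and junction adaptors, 2 were higher and 3 lower in endothelial-like cells, 2 higher in tanycyte-like and in VLMC-like cells and 2 lower in neurons. Among the 4 cadherin sheddases, 3 were higher in endothelial-like cells, led by Adam10 (1.85 ± 0.24), and 2 lower in neurons.

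AgRP-like neurons, the arcuate cells that make Agrp and Npy and promote feeding, had lower levels of most tested members than the other neurons. Of the 23 members tested against the remaining neurons of the same plates, 15 were lower and 3 higher, beside 15.2% of all 11751 genes tested passing in either direction (6.88% higher and 8.31% lower). The median of the log2 differences was -1.34 over the tested members and 0.01 over all tested genes. Cdh8, a type II cadherin of neuron subsets, was at 1.85, 2.38, 4.14 and 0.617 CPM on fed plates 1, 2 and 3 and the fasted plate, against 79.8, 118, 101 and 91.5 in the remaining neurons (-5.47 ± 0.26, edgeR adjusted p = 4.33e-10). Cdh13 was at 17.1, 16, 17.6 and 21.6 against 302, 399, 360.4 and 225 (-4.07 ± 0.17), and Cdh12 at 19.9, 29.1, 23.8 and 21 against 257, 335, 409 and 292 (-3.71 ± 0.13). For none of the 3 did the plates of both groups overlap. Cdh9, known from hippocampal mossy fibre synapses, differed by -3.86 ± 0.29, Pcdh11x by -3.58 ± 0.43 and Pcdh8 by -3.33 ± 0.50, the last on 14 AgRP-like transcripts. Cdh8, Cdh9 and Pcdh8 were too low for a test within AgRP-like neurons, between fasted and fed plates. Here they passed the filter on low counts through the remaining neurons, so they could only be called lower. They count among the 15 and in the median. The other 9 differed by -2.37 to -1.04 and were Pcdh19, Pcdh10, Cdh10, Cdh11, Cdh20, Cdh6, Cdh22, Cdh18 and Cdh4. Of all 15, Cdh4, Cdh20 and Cdh22 had overlapping groups, and overlap was not counted over all genes.

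The exception was Pcdh20. It stood at 146, 169, 119 and 225 CPM in AgRP-like neurons and 31.7, 41.7, 27.4 and 39.8 in the remaining neurons of the same plates, higher on all 4 plates without overlap (2.24 ± 0.13, edgeR adjusted p = 4.86e-09). Pcdh17 (0.70 ± 0.09) and Pcdh9 (0.59 ± 0.09) were higher by less, Pcdh9 with overlapping groups. After thinning to 2000 transcripts, 27.8% of AgRP-like neurons held a Pcdh20 transcript (95% Clopper-Pearson interval 21.7 to 34.7), against 4.21% of other neurons (1.84 to 8.13) and 0.881% of tanycyte-like cells. Cdh13 was seen in 4.12% of AgRP-like neurons, 35.3% of other neurons and 7.49% of tanycyte-like cells, and Cdh8 in 1.03%, 15.3% and 2.64%. Unthinned, Pcdh20 was seen in 92.8%, 34.5% and 4.27% of the same classes. Before thinning, the median transcripts per cell were 30223 in AgRP-like neurons, 26434 in other neurons and 6964 in tanycyte-like cells. These intervals cover counting error only. The AgRP-like cells fell into clusters that follow the plates, and the pattern was alike in them: Pcdh20 was at 149.8, 147 and 223 CPM and Cdh8 at 2.95, 1.93 and 0.608 in clusters of 88, 82 and 24 cells. None of the 7 catenins passed between AgRP-like and other neurons. Nectin1, an immunoglobulin adhesion protein, was lower (-3.08 ± 0.28), and the atypical cadherins Fat4 and Fat3 differed by 1.94 ± 0.39 and -1.63 ± 0.28.

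**Figure D3:**
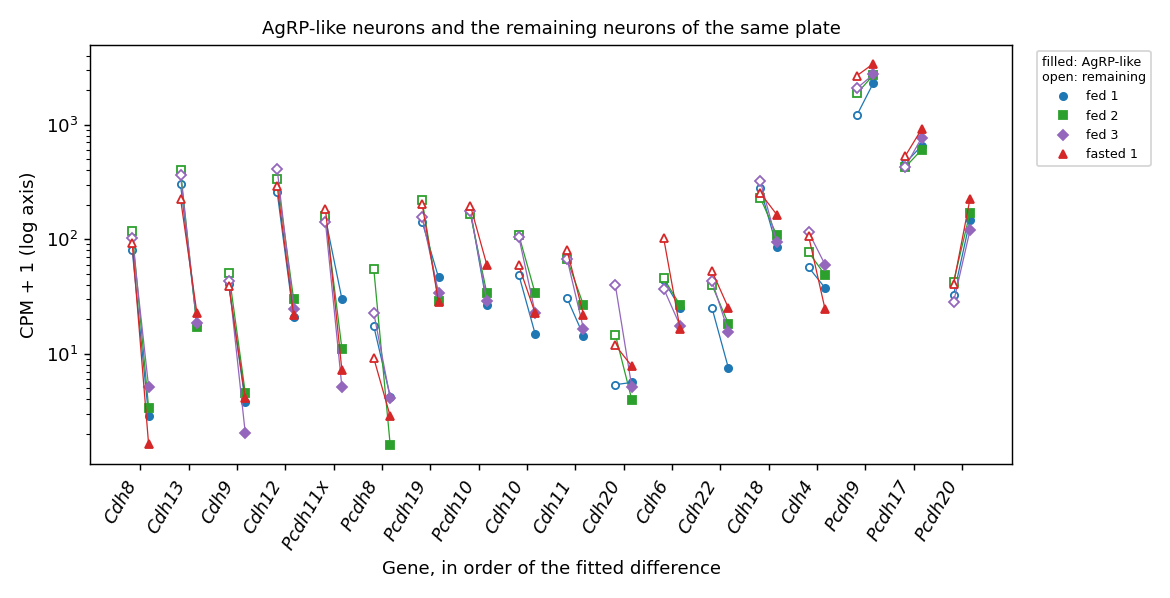
CPM + 1 (log axis) of the 18 members called between AgRP-like neurons (filled) and the remaining neurons of the same plate (open); a line joins the values of 1 plate, and genes run from the lowest to the highest fitted difference. The lines fall steeply for Cdh8, Cdh13, Cdh9, Cdh12 and Pcdh11x and rise for Pcdh20 on all 4 plates.

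The other neurons were grouped by clustering into N0 to N10, and 3 groups had enough cells on at least 3 plates. N0 (35 cells, led by Cox6a2 and Nkx2-4, unnamed) was tested on fed plates 1, 2 and 3. Of 23 members tested, 3 were higher and 11 lower, beside 6.63% of all 11967 genes tested passing in either direction (2.7% higher and 3.94% lower). The median log2 difference was -0.57 over the tested members and -0.02 over all tested genes. Cdh13 was at 443, 828 and 540.3 CPM against 84.4, 141 and 204 in the remaining neurons (2.05 ± 0.17, edgeR adjusted p = 4.20e-10), Pcdh10 at 188, 212 and 169 against 64.2, 83 and 122 (1.01 ± 0.20), and Pcdh9 was higher by 0.75 ± 0.12. None of these overlapped. The largest falls were of Cdh9 (1 transcript against 24.4 CPM), Pcdh20 (-4.17), Cdh20 (1 transcript against 14.4 CPM), Cdh6 (3 transcripts against 33.8 CPM), Pcdh11x (-2.98) and Cdh18 (-2.31), Pcdh20 on 4 transcripts. Others were Cdh11, Cdh8, Cdh4, Pcdh17 and Pcdh7. Since AgRP-like cells gave 53.9% of neuron transcripts, the test was repeated without them, which was chosen after seeing the data: 2 members were then higher and 9 lower of 22. Cdh13 was higher by 0.95 and Pcdh9 by 1.43, and Pcdh10 did not pass (0.14, edgeR adjusted p = 0.87).

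N1 (31 cells, led by Pomc, Calb1 and Gfra1, unnamed) was tested on all 4 plates. Of 23 members tested, 9 were higher and 2 lower, beside 4.48% of all 11530 genes tested passing in either direction (2.0% higher and 2.48% lower). Over the tested members the median log2 difference was 0.71, and over all tested genes -0.01. Pcdh11x was at 315, 326, 289.7 and 391 CPM on fed plates 1, 2 and 3 and the fasted plate, against 43.8, 53.1, 76 and 39.2 (2.66 ± 0.20, edgeR adjusted p = 8.53e-08). The type II cadherins Cdh8 (2.57 ± 0.32), Cdh9 (2.57 ± 0.28), Cdh6 (2.33 ± 0.31) and Cdh11 (2.19 ± 0.29) were higher together on every plate without overlap, and so was Pcdh19 (2.11 ± 0.17). Pcdh8 (2.19), Cdh13 (1.13) and Pcdh10 (0.85) also passed. Pcdh9 was lower, at 643, 1051, 925 and 1157 CPM against 2100.3, 2453, 2430.3 and 3345 (-1.47 ± 0.13), and so was Cdh7 (-0.99). With AgRP-like neurons left out, 8 of 22 were higher and 5 lower: Pcdh20 then passed as higher (2.01), as did Pcdh17 (1.10), Cdh10 as lower (-1.69), and Cdh13 turned to -0.08.

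N2 (25 cells, led by Sst and Rgs16, unnamed) was tested on fed plates 2 and 3 and the fasted plate. Of 23 members tested, 4 were higher and 2 lower, beside 1.92% of all 11623 genes tested passing in either direction (1.2% higher and 0.723% lower). The tested members had a median log2 difference of 0.19 and all tested genes one of -0.02. Cdh10 was at 264, 238 and 45.5 CPM against 55.7, 63.4 and 35.3 (1.67 ± 0.30, edgeR adjusted p = 0.005), Pcdh11x was higher by 1.43 ± 0.21, Cdh18 by 1.05 ± 0.19 and Pcdh19 by 0.90. Pcdh20 (-2.0 ± 0.36) and Pcdh9 (-0.88) were lower. No member passed with AgRP-like neurons left out or without fed plate 2, and 1 in each direction passed without fed plate 3.

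The groups that could not be tested are described by levels summed over plates. N8 (10 cells, all of fed plate 3, led by Ebf3, Nxph4 and Sim1) had 1087 CPM of Cdh12, 880.3 of Cdh18 and 202 of Cdh20, against 23.2, 111 and 4.66 in AgRP-like neurons. N7 (11 cells, led by Ebf1) had 831 of Cdh12 but 26 of Cdh18, and N3 (21 cells, named dopamine or GHRH neuron-like) 553 and 478. N5 (14 cells, led by Tac1) had 1018 CPM of Pcdh15, 158 of Cdh8 and 76.9 of Cdh9. N10 (6 cells, kisspeptin neuron-like) had 519 of Pcdh19, 453 of Pcdh11x and 427 of Cdh8. N6 (13 cells) had 13.9 of Cdh12 and 5.55 of Pcdh11x, low for both. N4 (21 cells) had 176 CPM of Cdh4 (R-cadherin), its highest group, and N9 (7 cells) 280.2 of Cdh7.

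**Figure D4:**
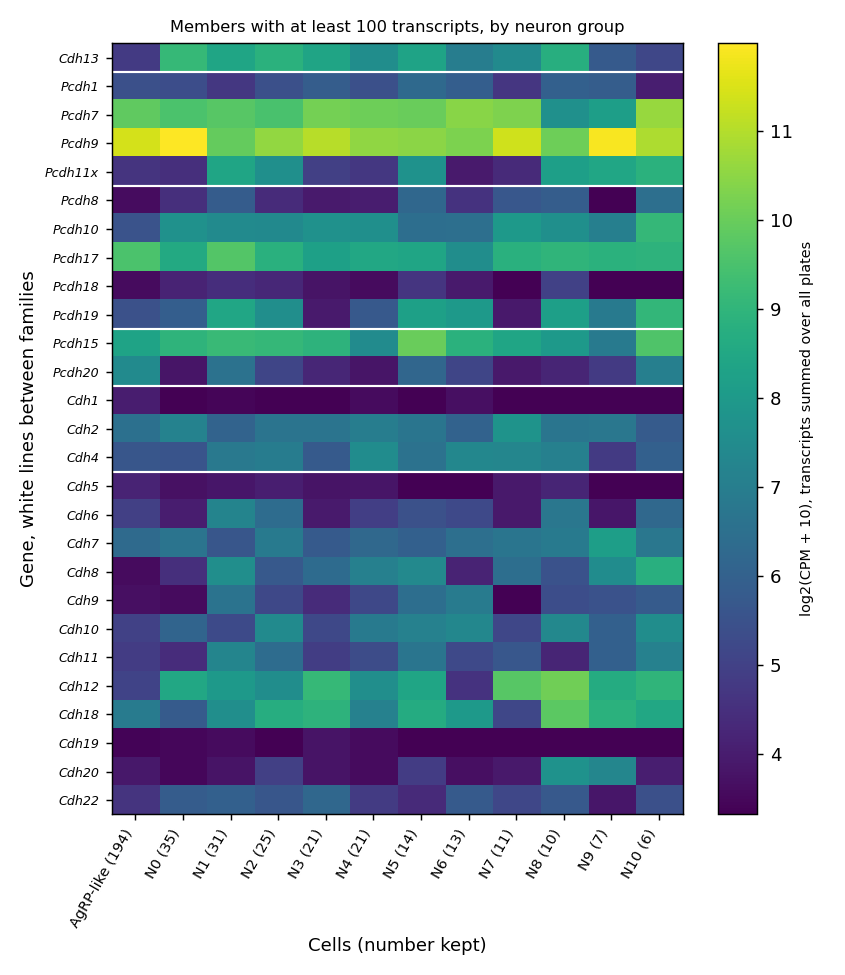
Level of the 27 members with at least 100 transcripts (rows by family) in AgRP-like neurons and groups N0 to N10 (columns, with the number of cells), as log2(CPM + 10) of transcripts summed over plates. The AgRP-like column is dark for Cdh8, Cdh9, Cdh13 and Pcdh11x, and Cdh12 and Cdh18 are brightest in N8.

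Groups with more Slc17a6 than Gad1, Gad2 and Slc32a1 were called glutamatergic and compared with the GABAergic ones, AgRP-like neurons left out, on fed plates 2 and 3, which alone held 5 cells of both. Of 24 members tested, 3 were higher and 0 lower, beside 2.96% of all 10139 genes tested passing in either direction (1.86% higher and 1.09% lower). Over the tested members the median log2 difference was 0.71, and over all tested genes -0.01. Cdh18 was at 319 and 724 CPM against 197 and 220.2 (1.29 ± 0.25, edgeR adjusted p = 0.0098), Pcdh19 at 405 and 236 against 152 and 134 (1.18 ± 0.24) and Pcdh11x at 233 and 273 against 132 and 106 (1.16 ± 0.23). DESeq2 called none of the 3. The glutamatergic cells were 30, of groups N5, N8 and N10, so N8 enters from 1 plate only.

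Fasted and fed plates were compared class by class, with 1 fasted plate whose spread is assumed to be that of the 3 fed plates and whose feeding state and plate cannot be told apart. In AgRP-like neurons 4 of 23 members tested were higher and 0 lower, beside 5.04% of all 13101 genes passing in either direction (3.11% higher and 1.92% lower). Median log2 differences were 0.38 over the tested members and -0.02 over all tested genes. Pcdh15 was at 153, 188 and 182 CPM when fed and 728 when fasted (2.10 ± 0.20, edgeR adjusted p = 3.18e-09). Cdh7 was at 40.2, 61.2 and 42.4 CPM when fed and 130.2 when fasted (1.46 ± 0.24, edgeR adjusted p = 1.28e-04). Both passed under all 9 alternatives tried, with differences of 2.01 to 2.15 for Pcdh15 and 1.32 to 1.69 for Cdh7. Pcdh10 (1.05 ± 0.28) and Cdh18 (0.81 ± 0.21) passed too, and neither did by DESeq2. Pcdh20, high in these cells, was at 225 CPM on the fasted plate against 146, 169 and 119 and did not pass (edgeR adjusted p = 0.068), but passed without fed plate 1 (0.65). Cdh4 passed as lower without fed plate 1 (-1.12) and Pcdh11x without fed plate 3 (-1.67). Of the listed partners, Fat3 was lower (-1.32 ± 0.30).

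Several measures moved with that plate. The 7 oligodendrocyte precursor markers, whose class holds the most Pcdh15, summed to 87.4, 109, 143 and 187 CPM in AgRP-like neurons of fed plates 1, 2 and 3 and the fasted plate, against 14112 in precursor-like cells, with 1 marker at 0 on the fasted plate. Other sets were highest there too: the 7 oligodendrocyte markers summed to 183, 219.9, 152 and 346, the 8 astrocyte markers to 17.1, 58.8, 67.2 and 124, the 8 microglia or macrophage markers to 32.8, 35.1, 29 and 69.7 and the 5 pars tuberalis markers to 29.1, 1.19, 5.17 and 72.8 CPM on the same plates. The 7 AgRP neuron markers did so as well, at 9806, 11304, 8989.6 and 15257 CPM. All 23 fasted AgRP-like cells, with 1 fed cell, made up a cluster of their own, whose median depth was 6.71 times that of the plate, against 3.95 and 1.88 in the other AgRP-like clusters. Between Xist-only and Y-only cells of fed plates 2 and 3, Pcdh15 (1.11 ± 0.19), Cdh20 (2.08 ± 0.33) and Cdh18 (0.98 ± 0.19) were higher in Xist-only cells, 3 of 27 tested and 0 lower, beside 1.18% of 13419 genes in either direction (0.507% higher and 0.671% lower). These sums took in kept cells of all classes and were not matched for class or depth. The part of the mix of classes in the 3 differences was not tested, so they are not sex differences within a class. Within AgRP-like neurons of these plates (Xist-only 40 and 6 cells, Y-only 11 and 14) no member of 14 tested passed, and Pcdh15 differed by 0.82 (edgeR adjusted p = 0.77). The part of glial and other RNA, depth and sex in the fasting differences was not tested.

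In tanycyte-like cells Cdh7 was again higher on the fasted plate, at 121 CPM against 20.1, 70.2 and 43.5 (1.37 ± 0.36, edgeR adjusted p = 0.012), and Pcdh19 was lower, at 22.2 against 71.9, 62.2 and 97.4 (-1.80 ± 0.50), 2 of 21 members beside 3.08% of genes in either direction (1.84% higher and 1.24% lower). Both calls were lost without fed plate 1 and without fed plate 3, and DESeq2 called neither. DESeq2 gave no adjusted p for 9686 of the 10409 genes there, so it may not have judged these 2 at all. Over the alternatives that gave one, by edgeR or DESeq2, the adjusted p ran up to 0.11 for Cdh7 and 0.14 for Pcdh19. In VLMC-like cells 1 of 9 members passed, beside 1.06% of genes (0.453% higher and 0.604% lower): Cdh11, at 139, 177 and 252 CPM when fed and with 0 transcripts when fasted, at least 4.7-fold lower. That call was lost by DESeq2, without fed plate 2 and without the cluster led by Nov and Slc47a1. Cdh7, by CPM after TMM scaling, was also highest on the fasted plate in VLMC-like (193.8), precursor-like (172.0), oligodendrocyte-like (144.9) and microglia or macrophage-like cells (105.4). In astrocyte-like (112.2) and endothelial-like cells (89.8) it lay between fed values, and in pericyte-like (92.0) and pars tuberalis-like cells (70.4) below the fed plate measured. The part of the plate in the Cdh7 calls was not tested. No member passed in all kept cells (0 of 32), all neurons (0 of 29), other neurons (0 of 24), astrocyte-like (0 of 16) or endothelial-like cells (0 of 10) by edgeR, where 0.0%, 0.245%, 0.143%, 0.0356% and 0.241% of genes did (0.0%, 0.199%, 0.111%, 0.0356% and 0.221% higher, and 0.0%, 0.0464%, 0.0318%, 0.0% and 0.0201% lower). DESeq2 called none in these either. The members at an unadjusted p under 0.05 were 3, 4, 3, 1 and 1.

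The 3 members with the lowest p in each of those classes did not pass. They were Cdh1 (1.44 ± 0.44), Cdh7 (0.83 ± 0.31) and Cdh26 (3.12 ± 1.19) in all kept cells, Cdh6 (0.70 ± 0.22), Pcdh7 (0.61 ± 0.24) and Cdh23 (-2.37 ± 0.92) in all neurons and Cdh6 (1.32 ± 0.26), Pcdh7 (0.77 ± 0.27) and Cdh13 (-0.64 ± 0.27) in neurons other than AgRP-like. Cdh6, lowest in p in the last, was at 42.6, 44.5 and 36 CPM when fed and 101 when fasted (edgeR adjusted p = 0.096). With each fed plate left out in turn it passed, with differences of 1.21, 1.35 and 1.38, and without fed plate 3 so did Pcdh8, a fall (-2.14). Without fed plate 1, Cdh1 (1.66), Cdh7 (0.66), Cdh19 (1.35), Cdh20 (0.89) and Cdh26 (4.81) were higher in all kept cells. Cdh4 (-0.83), Cdh12 (-0.94), Cdh13 (-0.65), Pcdh8 (-1.75) and Pcdh19 (-0.60) were lower there. In all neurons Cdh10 (-0.97), Cdh13 (-1.06) and Pcdh8 (-2.16) were lower without fed plate 1, and Cdh7 (1.27) was higher without fed plate 3. In each of these fits, and in those of Cdh6 above, more genes of all kinds passed than with all plates. In astrocyte-like cells, where fed plate 1 entered with 3 cells, the lowest were Cdh19 (1.16 ± 0.52), Pcdh19 (-0.80 ± 0.72) and Pcdh9 (0.84 ± 0.78), and in endothelial-like cells Pcdh9 (1.02 ± 0.49), Cdh2 (1.08 ± 0.63) and Pcdh17 (0.87 ± 0.71). Neuron groups make up different shares of the plates, which was not tested beside the values for mixed neurons. Of the partner lists, Dchs2, an atypical cadherin, was higher in fasted tanycyte-like cells (1.63 ± 0.46), and no catenin passed in any of the 8 fasting comparisons.

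**Figure D5:**
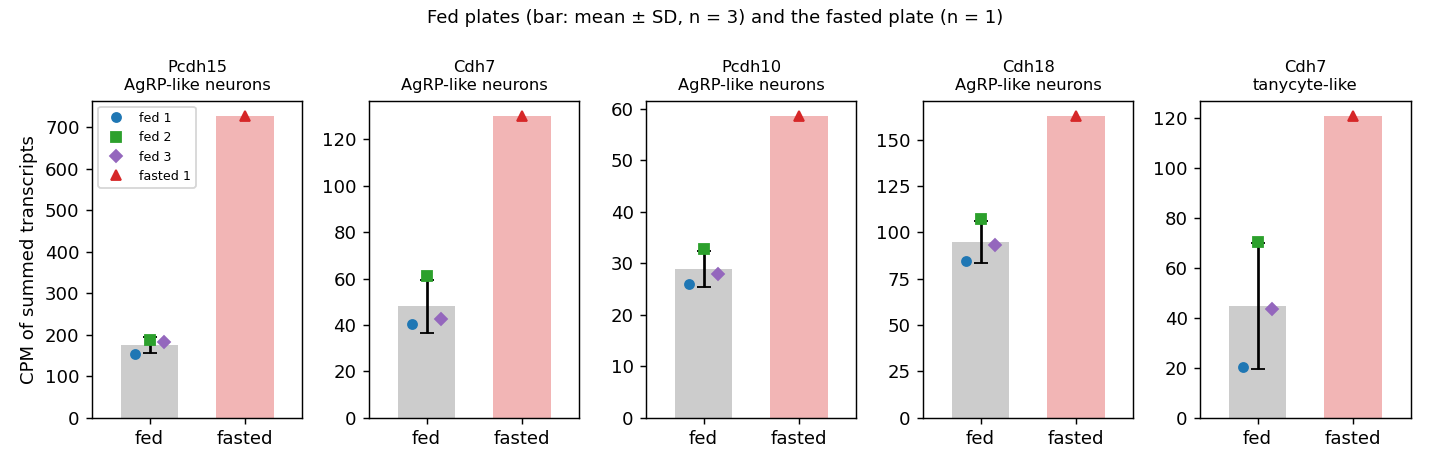
CPM of members called between fasted and fed plates, in AgRP-like neurons (Pcdh15, Cdh7, Pcdh10 and Cdh18) and tanycyte-like cells (Cdh7), on linear axes from 0; bars are the mean of the 3 fed plates with SD and the single fasted plate without an error, and points are plates. The fasted value of Pcdh15 lies far above its 3 fed points.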

How the data were processed

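Gene expression was measured in single sorted cells on 4 plates of 384 wells (CEL-seq2, a 3′ end method with molecular barcodes). The deposited tables hold expected counts, molecule counts corrected by the authors for barcode collisions and so not whole; the submitters' processing notes name Trim Galore, STAR and build mm10, and the counter, annotation release, strand and use of intronic reads were not given in the sources used here, so antisense and near-identical genes may share counts. 

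Wells with at least 1000 transcripts and under 30% mitochondrial transcripts were kept; no doublet caller was run. With scanpy 1.11.5 and leidenalg 0.10.2, cells were clustered on 2000 variable genes (30 components, 10 neighbours, resolution 1.5), leaving out 136 adhesion genes, which gave 26 clusters, and neurons other than AgRP-like again (1500 genes, 25 components, 8 neighbours, resolution 0.8), which gave 11 groups. A cluster could be named where at least 3 markers of 1 of 24 sets met a log2 fold of 1 and 25% of cells. It stayed unnamed where sets tied or another set had more genes among the cluster's leading genes. Neuron types also needed the first gene of their set, and shallow clusters a marker of the set among their leading genes. Neurons needed 30 neuron marker transcripts per 10000, a threshold set after seeing the data.

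Counts were summed per plate and class (at least 5 cells, or any number in the feeding comparison), rounded, and tested with edgeR 4.0.16 (R 4.3.3; filterByExpr, TMM, robust quasi-likelihood test, two-sided, Benjamini-Hochberg over all genes tested, threshold 0.05), with the plate as a block between classes of the same cells and without it for feeding, which leaves 2 residual degrees of freedom. The 21 comparisons were 7 of classes, 4 of neuron groups, 8 of feeding, 1 of transmitters and 1 of Xist-only against Y-only cells. The SE is the log2 difference over the square root of F. The scripts were tested on simulated data. Intervals are 95%, and cover counting error only. Members past the threshold with a log2 difference of at least 1 are named, the 6 largest in each direction with values. Members and lists were chosen with earlier results of these data known. Alternatives were DESeq2 1.42.0, other filters, scalings, clusterings, comparison sets and leaving out each plate.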

Additional observations from a re-analysis of the deposited data

How the results depend on the processing

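Of 442 recomputed member counts 373 stayed within 1.5 times, and of 1560 values for 132 named results 1418 kept their call, 135 lost it and 7 reversed. Alternatives in which a member fell below the filter or got no adjusted p are not among the 1560, so calls lost in that way are not counted. Against the mean of the other classes, members lower numbered 5 in VLMC-like, 1 in astrocyte-like, 5 in endothelial-like, 3 in oligodendrocyte-like, 0 in precursor-like and 2 in tanycyte-like cells and 1 in neurons, and 8 were higher in oligodendrocyte-like cells. The differences of Cdh18 (0.47) and Pcdh20 (0.61) in astrocyte-like cells, Cdh12 in endothelial-like cells (0.12), Cdh1 (0.94) and Cdh5 (0.44) in neurons and Pcdh15 in oligodendrocyte-like cells (0.87) then reversed. Here the comparison itself changes, since every other class has the same weight, also classes in which a member was not seen. Lower calls over all genes fell too, from 3132 of 14244 to 622 of 10097 in astrocyte-like cells. In endothelial-like cells they went from 3619 of 14201 to 994 of 10097. The causes of the reversals were not tested.

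With no replicate block for the plate, 1 member was higher in VLMC-like cells and 7 in neurons, and lower ones numbered 6 in N0, 1 in N1 and 0 in N2; no other member count moved by over 1.5 times. No paired analysis was possible because the feeding comparison has 1 fasted plate and shares only a replicate number. DESeq2 gave 2 higher in fasted AgRP-like neurons, 0 lower in fasted VLMC-like cells, 0 in either direction in fasted tanycyte-like cells, 0 higher in glutamatergic neurons, 5 lower in N0, 1 in N1 and 1 in precursor-like cells. For fasted tanycyte-like cells it gave no adjusted p for 9686 of 10409 genes, so that count says little. Without the filter on low counts, 5 members were higher in Xist-only cells, 1 in all fasted cells, 2 in all fasted neurons (1 lower) and 1 in other fasted neurons (1 lower), and 1 was lower in glutamatergic neurons, 5 in N1 and 1 in precursor-like cells. Leaving out AgRP-like neurons gave 5 lower in N1, 0 in either direction in N2, and -0.077 for Cdh13 in N1. With AgRP-like neurons alone, 0 differed by Xist. Without the third VLMC cluster 1 was higher in VLMC-like cells and 0 lower with fasting. Cells of at least 2000 transcripts gave 4 lower in N1 and 1 higher in N2, a higher clustering resolution 2 lower in glutamatergic neurons and 1 in N2, and cells assigned by marker sums 1 lower in precursor-like cells. The causes were not tested.

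Leaving out 1 plate at a time gave 7 to 12 higher and 6 to 9 lower in neurons, 7 to 10 lower in oligodendrocyte-like and 0 to 1 in precursor-like cells, 6 to 12 lower in N0, 1 to 2 in N1, 0 to 5 higher and 0 to 1 lower in N2. With fasting the ranges were 4 to 5 higher and 0 to 1 lower in AgRP-like neurons, 0 to 1 lower in VLMC-like cells, 0 to 1 higher and 0 to 1 lower in tanycyte-like cells, 0 to 5 higher and 0 to 5 lower in all cells (5 each without fed plate 1), 0 to 1 higher and 0 to 3 lower in all neurons (3 lower without fed plate 1), and 1 higher each time and 0 to 1 lower in other neurons. In neurons 7 were higher without fed plate 3, 6 were lower in N0 without fed plate 3, 7 were lower in oligodendrocyte-like cells without fed plate 2, and 0 were lower in precursor-like cells without fed plate 3. In all kept cells, all neurons and other neurons, each left-out fed plate that added member calls with fasting also added calls of other genes. Depth limits the members under 100 transcripts most.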

Other observations

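A cluster of 26 cells that stayed unnamed, led by Gkn3, Mgp and Sema3g, of which 18 came from fed plate 1, held 729.7 CPM of Cdh13 and 436 CPM of Cdh5, beside 39.1 and 354 in the endothelial-like cluster of 69 cells. Its 8 endothelial markers summed to 18817 CPM, and its cells counted among the remaining cells in the test of endothelial-like cells. The cluster was chosen after its values were seen, and the difference was not tested.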
